A study of Mus musculus with 4 samples.

Results

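Emx1, Emx2, Tbr1, Neurod6, Bcl11b, Drd2, Ppp1r1b and Rgs9 are genes by which the cerebral cortex and the striatum, the main regions of the forebrain, are commonly recognised. They were followed across 4 arrays as a check on the brain regions in the RNA. The members were chosen by gene symbol: every probe set (the oligonucleotides that together report 1 transcript) to which the platform annotation gives 1 of these 8 symbols was taken, 14 probe sets of 45037 that are not controls, and 8 genes of 18193 with a probe set of a single symbol. The mouse arrays were hybridised with target from total RNA that the labels give as brain, hindbrain and spinal cord. On cDNA arrays 0 and 1 the target was cDNA from a Nugen amplification kit, and on aRNA arrays 0 and 1 it was antisense RNA from a T7-based amplification. No strain, age, genotype, treatment or number of animals is given for any of the 4 arrays, nor whether RNA from separate tissue pieces was pooled, what the numbers 0 and 1 stand for, or whether both preparations used the same RNA. The preparation therefore cannot be told apart from the RNA it was made from.

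Regional identity in the forebrain is set by transcription factors that act in development and partly persist in mature neurons. Emx1 and Emx2 are homeobox factors of the dorsal forebrain, Tbr1 and Neurod6 mark excitatory neurons of the cortex, and Bcl11b (Ctip2) marks deep-layer cortical neurons that project out of the cortex as well as the medium spiny neurons of the striatum. Medium spiny neurons receive dopamine, and Drd2, Ppp1r1b and Rgs9 belong to their dopamine signalling: a receptor, a phosphatase inhibitor and a regulator of G proteins. Several of these genes are also made outside the forebrain. Drd2 is found in dopamine neurons of the midbrain, and Bcl11b in T cells and in neurons of the spinal cord.

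Values are the deposited intensities, scaled by the authors to an equal trimmed mean on each array, and levels and differences on the log2 scale are log2(intensity + 16), which understates changes of dim probe sets. The background level was taken as the 95th percentile of 27 control probe sets for Bacillus transcripts on the same array. It was 212 on cDNA array 0, 249 on cDNA array 1, 123 on aRNA array 0 and 126 on aRNA array 1, so a probe set had to be brighter on the cDNA arrays to count as above it. Of all probe sets, 62.7% lay above it on cDNA array 0, 60.2% on cDNA array 1, 71.6% on aRNA array 0 and 71.1% on aRNA array 1. The 18 probe sets for spiked hybridisation controls were also brighter on cDNA, by 2.19-fold to 6.99-fold, and their part in the differences below was not tested. Xist, the RNA of the inactive X chromosome, read 8.55 on aRNA array 0 and 15.44 on aRNA array 1 on the log2 scale. It read 11.94 and 12.51 on cDNA arrays 0 and 1. The Y-linked Eif2s3y read 13.12 on aRNA array 0, 6.79 on aRNA array 1, and 7.92 and 4.75 on cDNA arrays 0 and 1. So aRNA array 0 stands apart in sex-linked transcripts, and the 2 aRNA arrays differ strongly from each other in them. Whether these arrays hold RNA of different animals was not tested. Genes of neurons of all regions were bright throughout: all 10 on the list used lay above background on all 4 arrays, among them the synaptic genes Snap25 (107402 to 131998) and Syt1 (1892 to 4023).

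The 3 striatal signalling genes lay above background on every array, whereas 3 of the 5 transcription factor genes were under it on most arrays. Emx1, Bcl11b, Drd2, Ppp1r1b and Rgs9 each had a probe set above background on all 4 arrays. Tbr1 and Neurod6 passed it on 1 array each, a different one, and Emx2 on none. By probe set, 8 of 14 lay above background on cDNA array 0, 8 on cDNA array 1, 8 on aRNA array 0 and 7 on aRNA array 1. The shares, 57.1% at most, lie under those of all probe sets given above, on cDNA array 1 narrowly. By gene, at the brightest probe set, the shares were 62.5%, 75%, 75% and 62.5% in the same array order. Of all genes, 74.7%, 72.9%, 80.8% and 80.7% lay above background. These gaps rest on few probe sets and were not tested. On all 4 arrays 6 member probe sets were above background (48.0% of all probe sets were) and 3 on none (14.9% of all). In bulk RNA, fewer cells of a type and less RNA per cell cannot be told apart.

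**Figure D1:**
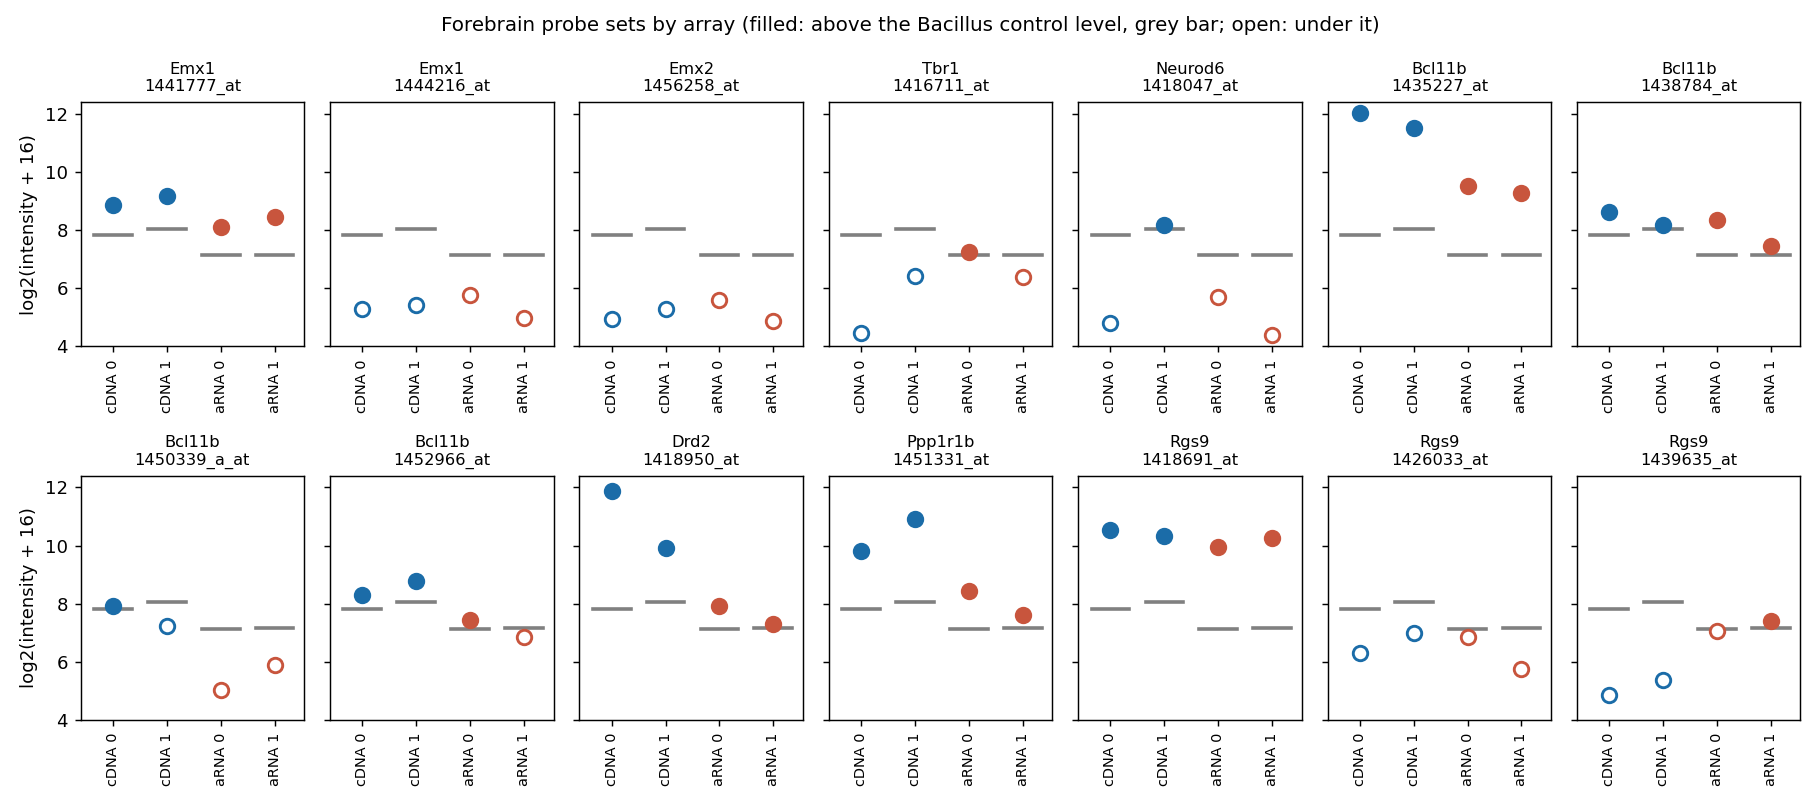
Level of each of the 14 probe sets on the 4 arrays, as log2(intensity + 16), with cDNA arrays in blue and aRNA arrays in red. The grey bar is that array's Bacillus control level, and open points lie under it. Bcl11b at 1435227_at, Drd2 and Ppp1r1b sit above the bars on all arrays and are higher on both cDNA arrays, while both Neurod6 and Tbr1 pass the bar on 1 array each.

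Among the cortical factors, Emx1 has a pair of probe sets that read differently. At 1441777_at the intensity was 443 on cDNA array 0, 555 on cDNA array 1, 257 on aRNA array 0 and 331 on aRNA array 1, which is 2.09 and 2.23 times background on cDNA and 2.09 and 2.64 times on aRNA. Both cDNA arrays were above both aRNA arrays in intensity, but not relative to each array's background. The difference of 0.73 ± 0.51 (SE of the limma fit, 95% interval −0.43 to 1.90) did not pass the threshold (adjusted p = 0.279). At 1444216_at Emx1 lay between 15.3 and 37.8 on the 4 arrays, under background on each. The Emx1 signal thus rests on 1 of its 2 probe sets.

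Emx2, the paralogue of Emx1, has 1 probe set, 1456258_at, and read 14.6 on cDNA array 0, 22.8 on cDNA array 1, 32.5 on aRNA array 0 and 13.4 on aRNA array 1. No array came near background, the closest being aRNA array 0 at 0.264 of it. A level under background is a bound and not a sign that the transcript is absent.

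Tbr1, a T-box factor of deep-layer cortical neurons, read 5.68 on cDNA array 0, 69.6 on cDNA array 1, 134 on aRNA array 0 and 66.7 on aRNA array 1 at 1416711_at. Only aRNA array 0 was above background, at 1.09 times its level, and that array no longer passed when the highest Bacillus control was used instead. The preparations overlapped. Neurod6, a basic helix-loop-helix factor of cortical and hippocampal pyramidal neurons, read 11.9 on cDNA array 0, 275 on cDNA array 1, 36.2 on aRNA array 0 and 4.67 on aRNA array 1 at 1418047_at. It passed background on cDNA array 1, at 1.11 times the level and not with the highest control, and was under it on the other 3 arrays. The gap between the cDNA arrays, 3.38 on the log2 scale, was the widest within a preparation among the 14 probe sets and exceeded the difference between the preparation means, 1.46. With cDNA array 0 at a level under background, that gap has no firm size.

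Bcl11b, a zinc finger repressor, was called higher on cDNA at the 1 of its 4 probe sets that was tested. At 1435227_at the intensity was 4158 on cDNA array 0, 2874 on cDNA array 1, 709 on aRNA array 0 and 602 on aRNA array 1. Each array was at least 4.79 times its background, and both cDNA arrays lay far above both aRNA arrays. The level was 11.76 ± 0.37 on cDNA and 9.39 ± 0.16 on aRNA (log2, SD, n = 2), a difference of 2.38 ± 0.37 (SE, 95% interval 1.54 to 3.22) or 5.19-fold, with a limma adjusted p of 0.00117. The other 3 Bcl11b probe sets were too dim to be tested, and their differences had the same sign. At 1438784_at the values were 374, 275, 305 and 160 on cDNA arrays 0 and 1 and aRNA arrays 0 and 1, above background on all 4 (on 3 with the highest control), and the preparations overlapped. At 1452966_at they were 301, 426, 156 and 99.4 in the same order, with aRNA array 1 under background. In intensity cDNA was at least 2.40-fold higher there, with cDNA arrays 0 and 1 at 1.42 and 1.71 times background. At 1450339_a_at they were 223, 135, 16.3 and 43.6, and only cDNA array 0 was above background, at 1.05 times its level.

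Of the striatal genes, Drd2, the inhibitory dopamine receptor of the indirect pathway, showed the largest difference of the 5 probe sets tested. Its intensity at 1418950_at was 3741 on cDNA array 0, 943 on cDNA array 1, 226 on aRNA array 0 and 142 on aRNA array 1. These are 17.7 and 3.79 times background on cDNA and 1.84 and 1.13 times on aRNA, so aRNA array 1 passed narrowly. The groups did not overlap, but cDNA array 0 stood 1.97 above cDNA array 1 on the log2 scale. The difference between the preparations was 3.28 ± 0.66 (SE, 95% interval 1.78 to 4.78), 9.70-fold, with a limma adjusted p of 0.00422. It was 2.29 without cDNA array 0 and 4.26 without cDNA array 1, and passed the threshold in both cases (adjusted p = 0.0236 and 0.000883).

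Ppp1r1b encodes DARPP-32, which inhibits protein phosphatase 1 once dopamine D1 receptor signalling has phosphorylated it. At 1451331_at it read 885 on cDNA array 0, 1935 on cDNA array 1, 333 on aRNA array 0 and 180 on aRNA array 1, or 4.18, 7.78, 2.71 and 1.43 times background in that order. The array order within cDNA was the reverse of that of Drd2: cDNA array 1 was the higher for Ppp1r1b, by 1.12, and cDNA array 0 for Drd2. The difference between the preparations was 2.34 ± 0.56 (SE, 95% interval 1.08 to 3.60) or 5.06-fold, with a limma adjusted p of 0.00917. Without cDNA array 1 it was 1.78 and did not pass (adjusted p = 0.0535), and with the other arrays left out in turn it lay between 1.92 and 2.90 and passed.

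Rgs9, which speeds the deactivation of G proteins in striatal neurons and, as another isoform, in photoreceptors, was the steadiest member. At 1418691_at the intensity was 1453 on cDNA array 0, 1266 on cDNA array 1, 977 on aRNA array 0 and 1219 on aRNA array 1, between 5.09 and 9.70 times background. The cDNA arrays were higher than the aRNA arrays by a narrow margin in intensity, and the aRNA arrays were higher relative to background. The difference of 0.31 ± 0.37 (SE, 95% interval −0.54 to 1.16) did not pass (adjusted p = 0.533). Its other probe sets were dim. At 1426033_at it read 38.4 to 110, under background on all 4 arrays. At 1439635_at it read 12.7 on cDNA array 0, 25.0 on cDNA array 1, 117 on aRNA array 0 and 155 on aRNA array 1, with aRNA array 1 alone above background. This was the 1 member probe set with both cDNA arrays under both aRNA arrays, opposite in direction to 1418691_at.

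The preparations were compared with limma over the 22519 probe sets whose mean level was at or above the median, which 5 member probe sets passed, 1 for each of 5 genes. Of these, 3 were called higher on cDNA (Bcl11b, Drd2 and Ppp1r1b), none lower, and 2 (Emx1 and Rgs9) did not pass. Without adjustment, 3 also had a p under 0.05. Without aRNA array 0, the array apart in sex-linked transcripts, Bcl11b (2.49), Drd2 (3.59) and Ppp1r1b (2.76) passed as well. The background is high: 43.2% of all probe sets tested were called, 20.2% higher and 22.9% lower on cDNA. Since 9 of the 14 probe sets were left out as dim, these counts describe the brighter members only. Emx1, Drd2 and Ppp1r1b, whose mean aRNA levels of 8.27, 7.61 and 8.03 lie under the filter level of 8.38, were tested only because their cDNA levels were higher. Over all 14 member probe sets, dim ones included, the median difference was 0.62, against 0.01 for all 45037. Over the 8 genes at their brightest probe set it was 1.09, against −0.001 for all genes. That 1.09 rests on Emx1 (0.73) and Neurod6 (1.46), and Neurod6 was under background on 3 arrays. Of all 14, 7 had both cDNA arrays above both aRNA arrays and 1 had both below, where 31.0% and 30.6% of all probe sets did. Those 7 include 1435227_at, 1450339_a_at and 1452966_at, all of Bcl11b, so they are not 7 separate genes. Each p-value rests on the spread between the 2 arrays of a preparation, which limma draws toward a trend over all tested probe sets. The SE and interval of a probe set thus do not reflect its own spread alone. The spread between these arrays may be technical in part, and its source was not tested. The aRNA arrays also differ strongly in the sex-linked transcripts given above.

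**Figure D2:**
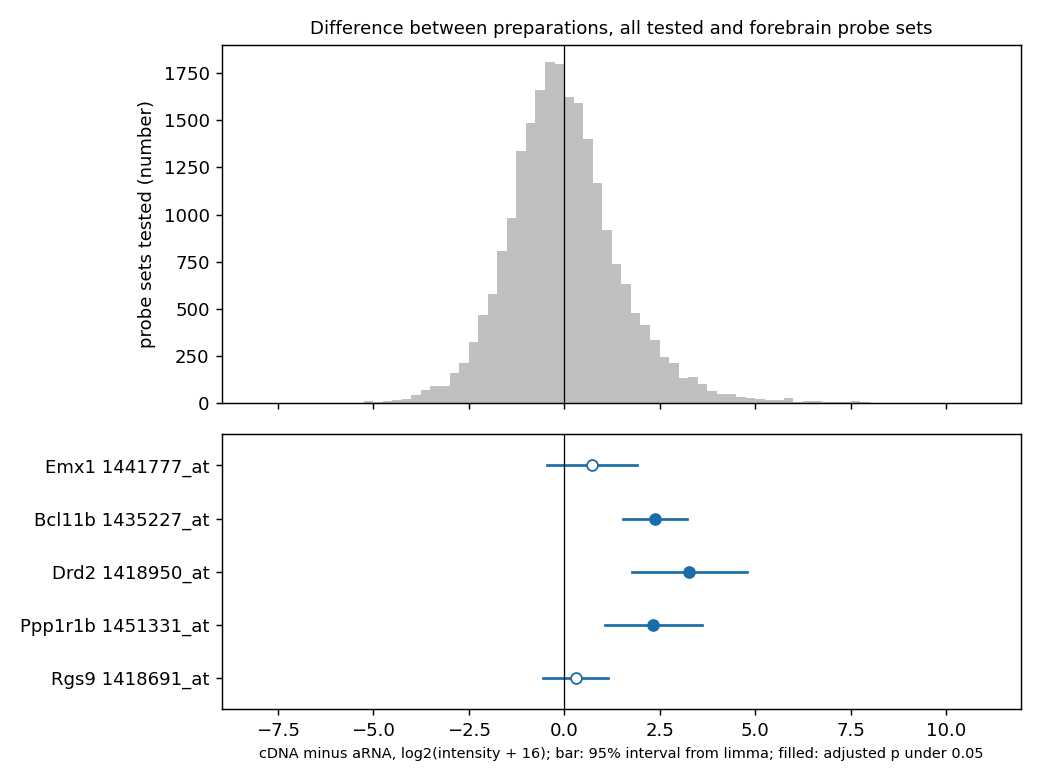
Upper panel: the number of tested probe sets by cDNA minus aRNA difference on the log2(intensity + 16) scale. Lower panel: the 5 forebrain probe sets tested, on the same axis, with limma's 95% interval; filled points passed an adjusted p of 0.05. Bcl11b, Drd2 and Ppp1r1b lie at 2.38, 3.28 and 2.34, in the right part of the distribution, and the intervals of Emx1 and Rgs9 span 0.

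Within a preparation the members did not follow the array number. Drd2 and Bcl11b at 1435227_at were lower on number 1 in both preparations (−1.97 and −0.53 on cDNA, −0.62 and −0.23 on aRNA). Emx1 at 1441777_at was higher on number 1 in both (0.31 and 0.35). Ppp1r1b was higher on number 1 on cDNA (1.12) and lower on aRNA (−0.83), and Rgs9 at 1418691_at lower on cDNA (−0.20) and higher on aRNA (0.31). Over these 5 probe sets the median size of the difference between the numbers was 0.53 on cDNA and 0.35 on aRNA, against 0.37 and 0.33 over all probe sets tested.

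Other genes of the cortex, taken at the brightest probe set of each gene, were mostly above background. Of 17 measured genes, 15 lay above it on cDNA array 0, 14 on cDNA array 1, 14 on aRNA array 0, 12 on aRNA array 1, and 11 (64.7%) on all 4, against 5 of the 8 members (62.5%) and 64.2% of all genes. Fezf2, a factor of subcerebral projection neurons, read 9.07 to 25.5 and was under background on all 4 arrays, a level shared by 9.64% of all genes and, in this list, by Fezf2 alone. Slc17a7 is the vesicular glutamate transporter of the cortex and also of cerebellar granule cells. It read 230 on cDNA array 0, 943 on cDNA array 1, 194 on aRNA array 0 and 58.6 on aRNA array 1. The last was under background. In intensity cDNA was at least 2.82-fold higher, with cDNA arrays 0 and 1 at 1.09 and 3.79 times background. Of the 12 tested genes of this list 5 were called higher on cDNA and none lower, where 21.9% and 22.9% of all tested genes were. Lower calls numbered 2 with median centring and 1 with quantile normalization, with no intensity trend, with the replicate block, with the filter at the 75th percentile or without cDNA array 0. Higher calls numbered 4 with a pseudocount of 1, without the filter or with median centring, and 3 with the filter at the 75th percentile. The median difference over all 17 was 1.01. The 5 genes called higher, named after their values were seen, were Bcl11a, Cux2, Mef2c, Camk2a and Ccn2, a connective tissue growth factor that vessels and meninges also make. Mef2c passed narrowly (limma adjusted p = 0.0495). Bcl11a and Camk2a, with mean aRNA levels of 7.28 and 8.37 under the filter level of 8.38, were tested only through their cDNA levels. Rorb and Sox5, also named after their values were seen, passed only through their aRNA levels and were not called.

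The other striatal genes lay on both sides. Of 22 measured, 13 (59.1%) were above background on all 4 arrays and 3 on none. Drd1, the stimulatory dopamine receptor of the direct pathway, read 97.3 on cDNA array 0, 39.3 on cDNA array 1, 254 on aRNA array 0 and 13.9 on aRNA array 1, above background on aRNA array 0 alone. Drd1 was thus not above background on the cDNA arrays, where Drd2 was. Pde10a, the phosphodiesterase of medium spiny neurons, went against Drd2 and Ppp1r1b: it read 2469 and 2081 on cDNA and 6383 and 9112 on aRNA at 1439618_at, lower on cDNA by −1.74 ± 0.30 (SE, limma adjusted p = 0.00203). Of the 14 tested genes 5 were called higher on cDNA (Tac1, Pde1b, Gng7, Ebf1 and Isl1), 3 lower (Pde10a, Arpp21 and Meis2) and 6 neither, and all but Pde10a were named after their values were seen. At 3 of 14 the lower calls are near the 22.9% of all tested genes, and the higher calls are to be read against 21.9%. Tac1, with a mean aRNA level of 8.15 under the filter level of 8.38, was tested only through its cDNA level. Foxp2 (8.31) was too and was not called. Rarb passed only through its aRNA level and was not called, both genes being named after their values were seen. The median difference over all 22 was −0.16. Without cDNA array 1 the higher calls were 3. Isl1 is also a gene of motor neurons, and Ebf1 of vessel-associated cells.

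Most tested genes of the hindbrain and cerebellum were called higher on cDNA. Of 11 tested, 9 were called higher and none lower, where 21.9% and 22.9% of all tested genes were. Most of those called passed the filter only through their cDNA levels, so a higher call was favoured in advance. These were En2 and, named after their values were seen, Pcp2, Cbln3, Gabra6, Zic2 and Egr2. Their mean aRNA levels, 6.46 to 8.30, lie under the filter level of 8.38. Over all 17 measured genes the median difference was 2.39, beside 1.09 for the 8 forebrain genes, and this gap was not tested. The cDNA arrays were not alike in these genes. Gabra6 read 3441 on cDNA array 0 and 28075 on cDNA array 1, and Cbln3 1359 and 12712. In the same order Zic2 read 3088 and 2937, and Egr2 1218 and 768. En2, a homeobox factor of the midbrain-hindbrain border and cerebellum, read 665 and 1902 on cDNA and 240 and 208 on aRNA, a difference of 2.25 ± 0.59 (SE, limma adjusted p = 0.0137) that did not pass without cDNA array 1 (1.51, adjusted p = 0.0862). Its sister gene En1 was above background on both cDNA arrays (292 and 491) and under it on both aRNA arrays. In intensity cDNA was higher by at least 2.81-fold, but it was at 1.38 and 1.97 times background there. Gbx2, a factor of the anterior hindbrain, passed background on cDNA array 1 alone (317). The 2 genes tested and not called, named after their values were seen, were Tph2 and Slc6a5. Tph2 is the enzyme of serotonin synthesis in raphe neurons, and Slc6a5 the glycine transporter of inhibitory hindbrain and spinal neurons. Both were brightest on aRNA array 0, and the preparations overlapped. Tph2 fell from 2533 there to 533 on aRNA array 1, with cDNA intensities of 741 (array 0) and 1596 (array 1). Slc6a5 fell from 3463 to 167, with cDNA intensities of 926 (array 0) and 1287 (array 1). The cause of these gaps within aRNA was not tested. Higher calls on cDNA were thus found for genes of the hindbrain and cerebellum list beside those of Bcl11b, Drd2 and Ppp1r1b. How far genes of that list are made in other regions was not examined, and the part of region in these differences was not tested.

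Hox genes of the middle paralogue groups, which mark the lower hindbrain and spinal cord, were mostly dim in both preparations. Of 12 measured genes 1, Hoxa5, was above background on all 4 arrays (552 to 1116), and 4 or 5 of the 12 on any 1 array. Hoxa4 read 28.1 to 157 and was under background throughout, and Hoxa7 passed it on cDNA array 1 alone (284). Hoxc4, named after its values were seen, was above background on both cDNA arrays (643 and 1061) and under it on both aRNA arrays. Hoxa5 was the 1 gene tested and gave −0.07 (adjusted p = 0.913), and without the filter 1 of the 12 genes was called higher on cDNA. The median difference over the 12 was 0.38. Of the 10 genes of all neurons, 1 was called higher on cDNA (Eno2) and 1 lower (Stmn2), with a median of −0.22, and Rbfox3 (−0.39), Snap25 (0.23), Syt1 (−0.51) and Tubb3 (−0.30) did not pass.

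**Figure D3:**
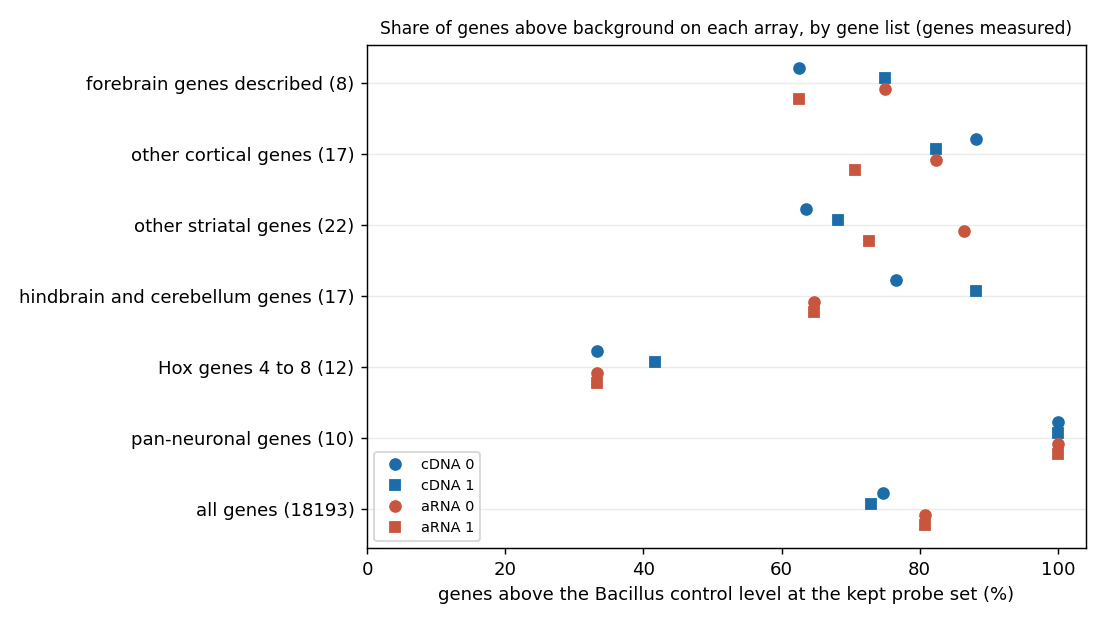
Share of genes above the Bacillus control level on each array, for the 8 forebrain genes, the 5 other lists and all 18193 genes, with the number of genes measured in brackets. Of the 8 forebrain genes 5 or 6 lie above it on an array. The share is 33.3% to 41.7% for the Hox genes and 100% for the genes of all neurons.

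Some genes shared the pattern of a member over the 4 arrays. Likeness was the distance between the 4 log2 values of a pair of probe sets after subtracting each one's mean, over 20001 probe sets of other genes for Bcl11b. The nearest were Fmod for Drd2 (distance 0.0662), Tmem209 for Bcl11b (0.124), Kcnq1ot1 for Ppp1r1b (0.132), Dgke for Emx1 (0.0396) and Ergic3 for Rgs9 (0.0181). With 4 values a close match is easily found, so these distances describe the arrays only.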

How the data were processed

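The 4 mouse arrays were compared from 1 table of deposited linear intensity values, which the authors had scaled so that the 2% trimmed mean was 2500.02 on each array. The method that summarised the probes was not given in the sources used here. Members, lists and tests were chosen with earlier results of these data known. Symbols came from the platform annotation (34945 probe sets with 1 symbol, 932 with several, 9160 with none), updated by gene identifier in a RefSeq table (34741 found). No coordinates are given, and some genes of the lists are not reported here.

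Values were taken as log2(intensity + 16). The 64 control probe sets were left out, and the 22519 probe sets with a mean at or above the median (8.38) were fitted with limma 3.58.1 in R 4.3.3 (lmFit, eBayes with an intensity trend, Benjamini-Hochberg over all tested, threshold 0.05, 2 residual degrees of freedom). The test was checked on simulated data. Where an array of the lower preparation lay under background, the fold is a bound: the mean of the higher preparation against the background level or the probe set's own value, whichever was higher on each array. It bounds intensity and makes no allowance for the higher background level of the cDNA arrays. Where the higher preparation had an array under background, no bound is given. The text names every member probe set and those measured among the first 4 genes of each other list as written, at the gene's brightest probe set. Genes named after their values were seen are marked so. Arrays with the same number were not treated as pairs: the differences between numbers correlated at 0.04 between preparations over the tested probe sets. Alternatives were the pseudocount, the filter, the scaling, the trend, the replicate block, each array left out and the background level. Plots used matplotlib 3.10.9 (Python 3.11.15).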

Additional observations from a re-analysis of the deposited data

How the results depend on the processing

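The 3 higher calls among the members were obtained with a pseudocount of 1 or 64, without a filter (14 member probe sets tested), with median centring, quantile normalization or no intensity trend, and with the array number as a replicate block (also 3, from 4788 higher and 5457 lower calls over all probe sets). With 1 array left out they numbered 2 to 3, with 3651 to 3902 higher and 3497 to 4700 lower calls over all probe sets (the lone array is then assumed to vary like the others). No member was called lower in any of these fits. With the filter at the 75th percentile no member was tested, so the count is 0 by construction, and 2892 probe sets were called higher. Median centring moved the median of all tested probe sets from −0.11 to −0.25 and the share of higher calls from 46.9% to 39.5%. Against the highest Bacillus control, 5 in place of 8 member probe sets lay above background on cDNA array 1. Hoxa5 changed sign without cDNA array 0 (0.036) and without aRNA array 0 (0.42), over a range of −0.57 to 0.42 with 1 array left out, never past the threshold, and the cause was not tested. Of 120 list counts under alternatives 14 moved by over 1.5 times or from 0.

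Precision is limited by 2 arrays per preparation and, for Emx2, Tbr1, Neurod6, Emx1 at 1444216_at, Bcl11b at 1450339_a_at and Rgs9 at 1426033_at and 1439635_at, by signal under background on at least 3 arrays.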
